A study of Mus musculus with 32 samples.

Results

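The 9 genes described here encode proteins of the tight junction, namely the claudins Cldn1, Cldn3, Cldn4, Cldn5, Cldn7 and Cldn8, the claudin partner occludin (Ocln) and the scaffold proteins ZO-1 (Tjp1) and ZO-3 (Tjp3). They were chosen by gene family and not by a measured value, as the rows of the count table whose Ensembl identifiers map to these symbols. Earlier results of these data were known when the choice was made. All 9 were found among the 32285 genes of the table.

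Tight junctions join neighbouring epithelial cells into a sheet that restrains the passage of water, ions and solutes between the cells. Claudins form the strands of the junction, and the mix of claudins sets how tight the seal is and which ions pass. Occludin lies in the same strands, and the ZO proteins tie the strands to the actin cytoskeleton from inside the cell. In the bladder, the surface umbrella cells of the urothelium carry these junctions as part of the barrier that keeps urine apart from the tissue, and claudin-4 and claudin-8 are known from these cells. Claudin-5 is best known from blood vessels, where it seals the junctions of endothelial cells.

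RNA was sequenced from 32 whole bladders of female C57BL/6 mice from an aging colony, with 1 library per bladder. There were 6 young bladders from mice of 2 months, 5 middle-aged ones from mice of 10 months, and old ones from mice of 26 months. The old mice were untreated (n = 6) or gavaged with water (n = 5), with vehicle (n = 4) or with D + Q (n = 6). Each month, beginning at 21 months of age and ending at 26, gavage was given on 3 days in a row. D + Q was 5 mg/kg dasatinib with 50 mg/kg quercetin, a drug pair used as a senolytic, and the vehicle held 10% ethanol, 30% PEG 400 and 60% Phosal 50 PG. The study asked how aging changes the bladder, and whether D + Q reverses any of it.

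Counts per bladder summed to 15088372 to 52650259, and 4 bladders had under 25000000 (young replicates 3 and 4, water replicate 1 and vehicle replicate 4). All 16 urothelial markers were detected, and none of the marker genes checked was at 0 in every bladder. Leukocyte markers differed most with age: 10 of 11 rose between 10 and 26 months, with a summed level of 594.1 to 846.1 CPM (counts scaled to library size) in untreated old and 325.4 to 395.4 CPM in middle-aged bladders. Fibroblast markers differed too, and summed to 15210 to 28450 CPM in young, 10060 to 12570 in middle-aged and 9497 to 10950 in untreated old bladders. The part of both lists in the results below was not tested. Where a gene is higher or lower in a whole bladder, a change in the number of cells that express it and a change in RNA per cell cannot be told apart.

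The genes lie on 6 chromosomes of the mouse (mm10, coordinates of the count table). Cldn3 (ENSMUSG00000070473, chromosome 5, 134986214 to 134987472, plus strand) and Cldn4 (ENSMUSG00000047501, chromosome 5, 134945119 to 134946934, minus strand) are neighbours. Cldn1 (ENSMUSG00000022512, 26356642 to 26371841, minus), Cldn5 (ENSMUSG00000041378, 18776847 to 18778262, plus) and Cldn8 (ENSMUSG00000050520, 88560828 to 88563183, minus) share chromosome 16. Cldn7 (ENSMUSG00000018569) lies on chromosome 11, 69964779 to 69967885, plus, and Ocln (ENSMUSG00000021638) on chromosome 13, 100496507 to 100552718, minus. Tjp1 (ENSMUSG00000030516) lies on chromosome 7, 65296165 to 65527781, minus, and Tjp3 (ENSMUSG00000034917) on chromosome 10, 81273207 to 81291581, minus. Exons of Tjp3 overlap those of Apba3 on the other strand, and exons of Cldn3 those of Wbscr25. The strand setting of the counting is not given in the sources used here, so the counts of Tjp3 and Cldn3 may hold reads of these partners or have lost reads to them.

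The promoters of the genes that moved together are shown, because Cldn4, Cldn7 and Tjp3 varied in step from bladder to bladder and Cldn1 varied against Tjp3. RefSeq sequences (GRCm38.p6, the assembly of mm10) were matched for 8 of the 9 genes, all but Cldn8, with 11 start sites. Each run below holds the 200 bases before a start, 5′ to 3′ on the gene's strand, with capitals for any match to 4 motifs on either strand. These motifs were the AP-1 site TGANTCA, found in 5.48% of 32851 promoter windows of the same length, the GC box GGGCGG (31.0%), the grainyhead-type site CCGGTT (4.56%) and the E-box CACCTG (13.9%). A match is a run of letters, not a bound site.
Cldn4 (chr5:134946935-134947134, minus strand): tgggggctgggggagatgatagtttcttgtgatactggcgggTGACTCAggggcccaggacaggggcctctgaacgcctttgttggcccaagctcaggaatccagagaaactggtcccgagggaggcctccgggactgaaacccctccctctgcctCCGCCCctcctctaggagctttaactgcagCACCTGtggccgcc
Cldn7, start 1 (chr11:69964579-69964778, plus strand): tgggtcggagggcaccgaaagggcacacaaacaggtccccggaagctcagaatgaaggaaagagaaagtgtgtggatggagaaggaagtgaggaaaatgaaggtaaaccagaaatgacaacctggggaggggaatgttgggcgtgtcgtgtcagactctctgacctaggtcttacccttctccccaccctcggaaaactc
Cldn7, start 2 (chr11:69965221-69965420, plus strand): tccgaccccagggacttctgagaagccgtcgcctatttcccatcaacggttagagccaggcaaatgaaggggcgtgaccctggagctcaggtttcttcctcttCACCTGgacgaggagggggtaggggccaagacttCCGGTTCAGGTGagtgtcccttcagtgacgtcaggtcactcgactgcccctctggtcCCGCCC
Tjp3, start 1 (chr10:81291582-81291781, minus strand): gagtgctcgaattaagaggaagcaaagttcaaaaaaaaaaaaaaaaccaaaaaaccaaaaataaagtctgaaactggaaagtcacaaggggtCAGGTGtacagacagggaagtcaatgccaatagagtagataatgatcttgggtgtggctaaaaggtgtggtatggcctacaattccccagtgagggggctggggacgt
Tjp3, start 2 (chr10:81291268-81291467, minus strand): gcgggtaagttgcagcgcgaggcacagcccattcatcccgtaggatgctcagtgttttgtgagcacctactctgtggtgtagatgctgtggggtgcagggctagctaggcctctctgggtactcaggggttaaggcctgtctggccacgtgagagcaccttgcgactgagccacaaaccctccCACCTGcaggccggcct
Cldn1 (chr16:26371840-26372039, minus strand): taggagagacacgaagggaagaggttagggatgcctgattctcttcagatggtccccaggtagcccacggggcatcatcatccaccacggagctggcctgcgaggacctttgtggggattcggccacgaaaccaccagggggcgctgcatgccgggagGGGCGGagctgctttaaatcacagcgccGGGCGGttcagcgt

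The Cldn4 window held 1 AP-1 site, 1 GC box and 1 E-box, the last close to the start. The window of the second Cldn7 start held 1 GC box, 1 grainyhead-type site and 2 E-boxes, of which 1 runs on from the grainyhead-type site without a gap or overlap, while that of the first start held none of the 4 motifs. Each Tjp3 window held 1 E-box, and the Cldn1 window held 2 GC boxes and no other match. Grainyhead-type sites are letters read by Grhl2, a known activator of epithelial junction genes, and E-boxes of this form are read by Snai and Zeb repressors. The window of the second Ocln start, not shown, held 1 GC box, 1 grainyhead-type site and 1 E-box. Ocln did not vary in step with Cldn4 (correlation -0.000788). No binding was measured here.

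Levels between genes were compared in TPM, which divides each count by gene length and scales every bladder to the same sum. Cldn4 was the most abundant member by far, with 318 ± 46.1 TPM (SD, n = 6) in young, 380 ± 38.9 TPM (n = 5) in middle-aged and 330 ± 21.5 TPM (n = 6) in untreated old bladders. Over all 32 bladders the mean levels ran from Cldn4 (356.3 TPM) through Tjp1 (121.0), Cldn8 (94.2), Tjp3 (75.6), Cldn7 (69.8), Cldn5 (52.5), Ocln (14.9) and Cldn1 (12.5) down to Cldn3 (0.971). Cldn4 stood above Tjp1 in all 32 bladders with no overlap of their ranges, as did Cldn5 above Ocln and Cldn1 above Cldn3. The steps between the other neighbours were smaller: Tjp1 exceeded Cldn8 in 32 bladders, Cldn8 exceeded Tjp3 in 30, Tjp3 exceeded Cldn7 in 27, Cldn7 exceeded Cldn5 in 28 and Ocln exceeded Cldn1 in 26, and each of these pairs had overlapping ranges.

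Of the summed TPM of the 6 claudins, Cldn4 gave 56.5 ± 3.5% (SD, n = 6) in young, 60.0 ± 1.8% (n = 5) in middle-aged and 60.5 ± 2.3% (n = 6) in untreated old bladders. After gavage its share was 62.2 ± 1.5% with water (n = 5), 62.6 ± 2.8% with vehicle (n = 4) and 63.0 ± 1.9% with D + Q (n = 6). At the other end, Cldn3, a sealing claudin of many glandular and gut epithelia, was barely detected, with 2 to 7 counts per young bladder and 11 to 23 per untreated old bladder.

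**Figure D1:**
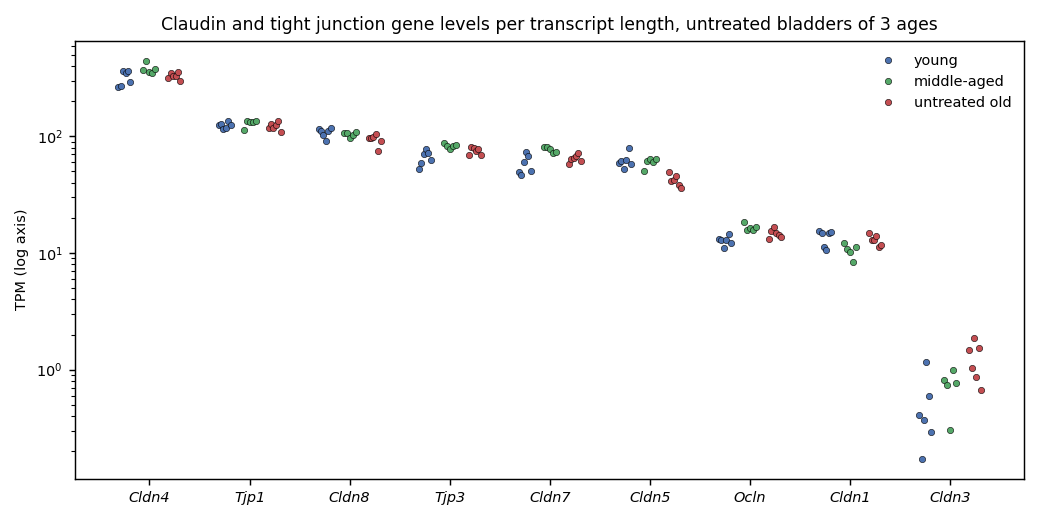
Levels of the 9 genes in TPM on a log axis, with a point for each young, middle-aged and untreated old bladder. Cldn4, whose group means are 318 to 380 TPM, lies above every other member, and Cldn3 has group means near or under 1 TPM.

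Between 2 and 10 months, 3 of the junction genes rose and 1 fell. Ocln, Cldn7, a claudin of the basolateral membrane of epithelia, and Tjp3 were higher in middle-aged than in young bladders, and Cldn1, a claudin best known for the barrier of the skin, was lower. Of the 8 members tested (Cldn3 fell short of the count filter), 3 were thus higher and 1 lower with an adjusted p under 0.05, where 4.96% of the 16754 genes tested were higher and 5.85% lower. The median log2 fold change of the members was 0.155, and that of all genes 0.0028.

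Ocln in young bladders spanned 13.6 to 16.8 CPM (median 15.6), and the middle-aged bladders stood at 22.3, 18.4, 19.5, 19.3 and 19.9 CPM. The groups did not overlap, and the log2 fold change was 0.38 (SE 0.0698, adjusted p = 0.00666). Ocln passed the threshold with any 1 of the 11 bladders left out.

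Cldn7 spanned 25.8 to 41.3 CPM in young bladders (median 31.5), and the middle-aged bladders stood at 45.1, 43.3, 43.1, 40.2 and 40.4 CPM. Only young replicate 4 reached into the middle-aged range, and the log2 fold change was 0.41 (SE 0.108, adjusted p = 0.0321). Tjp3 spanned 56.0 to 84.2 CPM in young bladders (median 69.6) against 93.8, 84.4, 82.7, 89.3 and 87.5 CPM. Here too only young replicate 4 stood above the lowest middle-aged bladder, and the log2 fold change was 0.34 (SE 0.0896, adjusted p = 0.0307). Cldn1 ran the other way, at 14.8 to 21.4 CPM in young bladders (median 20.1) against 16.8, 14.3, 13.9, 11.6 and 15.4 CPM. Young replicates 3 and 4 were the lowest of their group for Cldn1 and lay among the middle-aged values, and the log2 fold change was -0.39 (SE 0.114, adjusted p = 0.046).

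The calls of Cldn7, Tjp3 and Cldn1 were lost when single bladders were left out. Without 1 of young replicates 1, 2 or 6, or of middle-aged replicates 1, 2, 3 or 5, Cldn7 missed the threshold (adjusted p = 0.0556 to 0.0811), and without 1 of young replicates 2 or 6 or of any middle-aged bladder, so did Tjp3 (0.0516 to 0.0813). Cldn1 missed it without 1 of young replicates 1, 2, 5 or 6 or of middle-aged replicates 2 to 5 (0.0628 to 0.102). Its log2 value over all omissions was -0.45 to -0.32.

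Cldn4, the main claudin of the tissue, showed the same pattern without passing the threshold. It spanned 139 to 193 CPM in young bladders (median 166.4) and stood at 192.4, 222.4, 184.6, 181.1 and 192.7 CPM in middle-aged ones, with a log2 fold change of 0.25 (SE 0.0951, adjusted p = 0.105). The young bladders fell into a lower set, replicates 1, 2 and 6 at 139.1, 139.9 and 152.1 CPM, and a higher set at 180.6 to 192.5 CPM. The lower set also held the lowest Cldn7 and Tjp3 levels of the group and the highest summed fibroblast markers, at 28450, 27360 and 22280 CPM against 15210 to 17670 CPM in the other young bladders. The slope of log2 level on GC content, for each 10 percentage points, differed among the young bladders too. It was -0.0823, -0.0866 and -0.00569 in replicates 1, 2 and 6, and 0.0781, 0.144 and -0.0206 in replicates 3, 4 and 5. The part of the markers and of GC content in this split was not tested. With a correction for GC content, the log2 value for Cldn4 between these ages was 0.24 (adjusted p = 0.0781). With the shallow young replicates 3 and 4 left out, a setting added after seeing the data, 5 members passed. The log2 values were 0.35 for Cldn4, 0.52 for Cldn7, 0.45 for Tjp3, 0.34 for Ocln and -0.51 for Cldn1. Replicates 3 and 4 were the highest young bladders for Cldn4 and the lowest for Cldn1. Replicate 4 was also the highest for Cldn7 and Tjp3. Leaving these bladders out thus widens those differences whatever their depth.

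Tjp1, Cldn5 and Cldn8 differed little between young and middle-aged bladders. Their log2 fold changes were 0.06 (adjusted p = 0.499), -0.06 (0.692) and -0.05 (0.614). With the score of the endothelial markers as a covariate, none of the members passed (adjusted p for Ocln 0.074), and 212 genes in all were called in place of 1811.

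**Figure D2:**
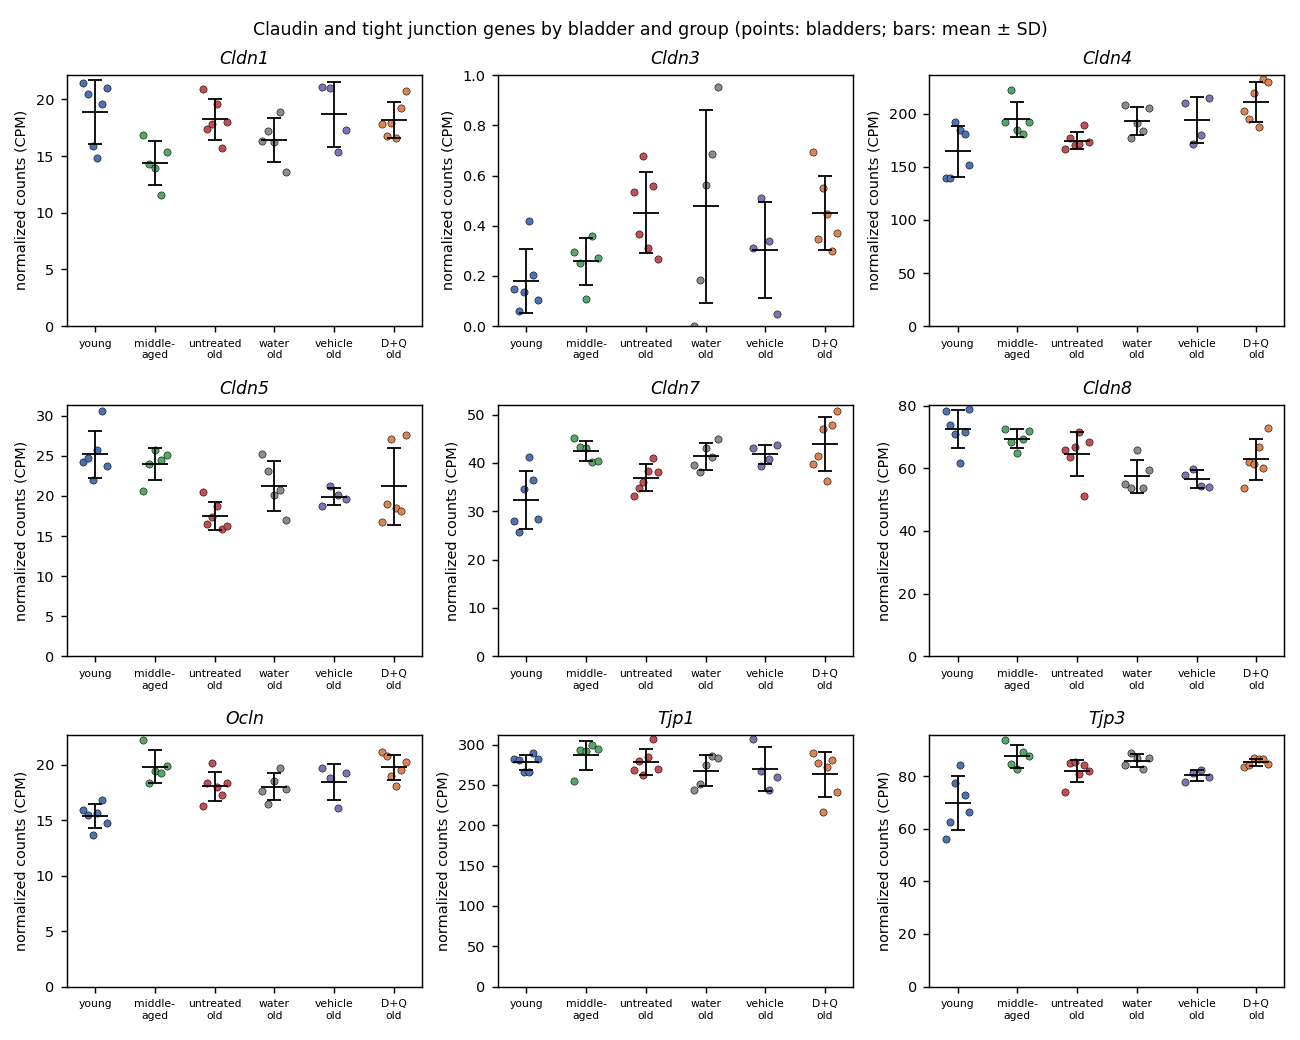
CPM of each of the 9 genes in the 32 bladders, by group, with the mean ± SD of each group. Ocln, Cldn7 and Tjp3 lie higher at 10 than at 2 months, Cldn1 lies lower at 10 months than at 2 or 26, and Cldn5 lies lower in the untreated old bladders than at either earlier age.

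Between 10 and 26 months, in untreated mice, Cldn5 fell clearly, Cldn4 and Cldn7 fell slightly, and Cldn1 rose. All 9 members were tested, and 1 was higher and 3 lower in the old bladders, where 13.0% of the 17156 genes tested were higher and 11% lower. The median log2 fold change was -0.104 over the members and -0.0047 over all genes.

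Cldn5 stood at 20.6, 24.0, 25.8, 24.5 and 25.2 CPM in middle-aged bladders and spanned 15.8 to 20.5 CPM (median 16.9) in untreated old ones. The groups did not overlap, though the highest old bladder (20.45 CPM) came close to the lowest middle-aged one (20.62 CPM). The log2 fold change was -0.46 (SE 0.0762, adjusted p = 0.000953). The endothelial markers as a list moved less, with a median log2 value of -0.11 and with 1 of 12 higher (Vwf) and 2 lower (Cdh5 and Tie1). Their summed level was 546.3 to 589.3 CPM in middle-aged and 533.1 to 603.6 CPM in untreated old bladders. With the endothelial score as a covariate, the log2 value for Cldn5 was -0.40 (adjusted p = 0.0062).

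Cldn1 in untreated old bladders spanned 15.7 to 20.9 CPM (median 17.9), against the middle-aged values of 11.6 to 16.8 CPM. A single middle-aged bladder, replicate 1, lay above the lowest old one, and the log2 fold change was 0.34 (SE 0.0934, adjusted p = 0.0187). Cldn7 spanned 33.1 to 40.9 CPM in untreated old bladders (median 37.1), and only the highest of them reached into the middle-aged range. Its log2 fold change was -0.20 (SE 0.0534, adjusted p = 0.016). Cldn1, Cldn5 and Cldn7 passed with any 1 of the 11 bladders left out. Cldn1 did not pass with the endothelial covariate (0.31, adjusted p = 0.0649) or with the urothelial markers other than Krt14 (0.26, 0.166), and Cldn7 did not with all 6 groups in a single fit (-0.20, 0.152).

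Cldn4 in untreated old bladders spanned 166.5 to 189.1 CPM (median 172.4), and the log2 fold change was -0.16 (SE 0.051, adjusted p = 0.0417). Most of the old bladders lay below the middle-aged range. This call was lost without any 1 of 8 bladders, namely middle-aged replicates 1, 2 and 5 and untreated old replicates 1, 2, 3, 4 and 6 (adjusted p = 0.0554 to 0.0894). It was also lost with all 6 groups in a single fit (adjusted p = 0.22), the replicate number as a block (0.0625) and no filter on low counts (0.0604). Without middle-aged replicate 2, which held the highest Cldn4 level of its group, the log2 value was -0.10. The mean Cldn4 level was 194.6 CPM in middle-aged and 174.7 CPM in untreated old bladders. After water, vehicle and D + Q it was 193, 194.1 and 211.1 CPM. For Cldn7 the same means were 42.43, 36.92, 41.36, 41.75 and 43.88 CPM, in that order. The Cldn5 mean of each gavaged group stayed below the middle-aged mean, and that of Cldn1 above it. Gavaged bladders were not tested against middle-aged ones.

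Across the genes tested, the log2 fold change between these ages fell by 0.066 for each 10 percentage points of GC content. Cldn4 (56.8% GC), Cldn7 (57.0%), Cldn5 (60.5%), Tjp3 (60.7%) and Cldn3 (62.7%) lie above the median tested gene (49.7%), and Cldn1 (39.0%), Cldn8 (40.6%), Ocln (42.0%) and Tjp1 (46.8%) below it. With a correction for this trend Cldn4 no longer passed (log2 value -0.13, adjusted p = 0.139), while Cldn1 (0.29), Cldn5 (-0.41) and Cldn7 (-0.17) did. Of the 16 urothelial markers, 5 were also lower in the old bladders and 1 was higher, with a median log2 value of -0.105. The log2 values of these markers ran from -0.2255 to 2.76. The urothelial list summed to 8840 to 10250 CPM in middle-aged and 8438 to 9078 CPM in untreated old bladders. Its part in the fall of Cldn4 and Cldn7 was not tested, since a covariate cannot part cell number from RNA per cell. With the score of all 16 markers as a covariate both genes passed. With Krt14 left out of the score, Cldn4 (-0.25, adjusted p = 0.00757) passed and Cldn7 (-0.22, 0.0506) did not.

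The remaining members did not pass between 10 and 26 months. Ocln had a log2 value of -0.13 (SE 0.0618, adjusted p = 0.138), Tjp3 of -0.10 (0.118), Cldn8 of -0.10 (0.326) and Tjp1 of -0.04 (0.583). The log2 value for Cldn3 was 0.78 (SE 0.326, adjusted p = 0.104), at 4 to 13 counts per middle-aged bladder and 11 to 23 per old one.

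Over the whole span from 2 to 26 months, 2 members were higher and 1 lower, where 12.6% of the 16873 genes tested were higher and 12.4% lower. The median log2 fold change was 0.0869 over the 9 members and -0.0021 over all genes. Cldn5 was the member that fell, with a log2 fold change of -0.53 (SE 0.0845, adjusted p = 0.000528) and no overlap between 22.03 to 30.6 CPM in young (median 24.5) and 15.8 to 20.5 CPM in untreated old bladders. Of the endothelial markers, 2 were higher and 5 lower in this comparison, with a median log2 value of -0.131, and with their score as a covariate Cldn5 was at -0.54 (adjusted p = 0.0228). Ocln was still higher at 26 than at 2 months, at 16.3 to 20.2 CPM (median 18.2) against 13.6 to 16.8 CPM, with a log2 fold change of 0.23 (SE 0.0646, adjusted p = 0.0182). Only the lowest old bladder lay below the highest young one. Ocln did not pass with the urothelial markers (0.20, adjusted p = 0.0564) or the endothelial markers (0.25, 0.151) as a covariate. Cldn3 was the other member counted as higher, with a log2 fold change of 1.41 (SE 0.395, adjusted p = 0.0189). It had 25 counts in all over the 6 young bladders, or 2 to 7 each, against 11 to 23 per untreated old bladder. It thus met the count filter mainly through the old bladders, where it is high. Without untreated old replicate 2 or 5, or with a minimum of 10 counts in every bladder, Cldn3 was not tested. It did not pass with the endothelial covariate (1.31, adjusted p = 0.203).

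Cldn1, Cldn4, Cldn7, Tjp3, Ocln and Tjp1 had opposite signs in the 2 age steps. Of these, Ocln passed over the whole span and the others did not (adjusted p for Tjp1 0.947). From 2 to 26 months the log2 fold changes were -0.06 for Cldn1 (adjusted p = 0.743), 0.09 for Cldn4 (0.481), 0.19 for Cldn7 (0.198) and 0.23 for Tjp3 (0.0538). Tjp3 lay near the threshold. It passed with DESeq2 (adjusted p = 0.035), a minimum of 10 counts per bladder (0.0427) and all 6 groups in a single fit (0.00395). It also passed with the urothelial markers except Krt14 as a covariate (0.01), but not with all of them (0.0911) or the endothelial markers (0.826). With the endothelial covariate the values for Cldn1, Cldn4 and Cldn7 changed sign, to 0.17, -0.15 and -0.15, and none of them passed. Cldn8, the other umbrella cell claudin, stood at 61.8 to 78.9 CPM in young, 64.8 to 72.4 in middle-aged and 51.2 to 71.7 in untreated old bladders, with a log2 value of -0.17 (adjusted p = 0.138). With the GC correction 5 members passed, since Cldn8 (-0.21, adjusted p = 0.0458) and Tjp3 (0.28, 0.00742) were added, and without the 2 shallow young bladders 6 did, with Cldn7 (0.32), Cldn8 (-0.23) and Tjp3 (0.34). Of these shallow bladders, replicate 4 was the highest young one for Cldn7 and Tjp3 and the lowest for Cldn8.

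The difference between the 2 age steps was tested directly, as the change from 10 to 26 months minus the change from 2 to 10 months in a fit of the 3 ages. It passed for 3 members, and 10.8% of the 17376 genes tested passed. Both steps share the middle-aged bladders, so a high or low value there moves them in opposite directions. Cldn1 had a difference of 0.75 on the log2 scale (SE 0.192, adjusted p = 0.0211), Cldn7 of -0.59 (SE 0.166, 0.0323) and Ocln of -0.49 (SE 0.113, 0.0127). Tjp3 (-0.42, 0.0554) and Cldn4 (-0.39, 0.0849) did not pass. The call was lost for Ocln without middle-aged replicate 1 (-0.40, adjusted p = 0.0504), for Cldn1 without middle-aged replicate 2, 3 or 4 (0.61 to 0.74, 0.0541 to 0.0588) and for Cldn7 without middle-aged replicate 1, 2, 3 or 5 (-0.62 to -0.54, 0.0646 to 0.0896).

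**Figure D3:**
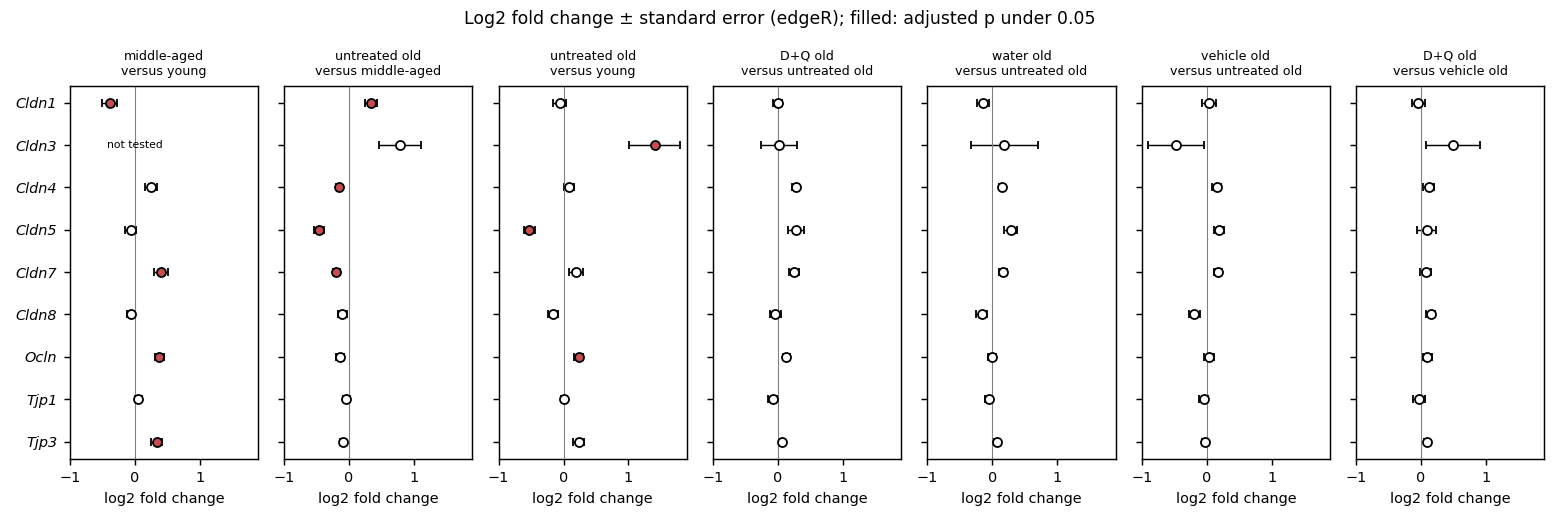
Log2 fold changes of the 9 genes with their SE in the 7 comparisons of 2 groups, with filled points for an adjusted p under 0.05. Filled points occur in the 3 comparisons of ages, with Cldn5 at -0.46 and -0.53 in the comparisons with the old bladders, and none in the 4 comparisons of gavaged bladders.

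None of the 9 members passed with edgeR in any of the 4 comparisons of gavaged bladders. With D + Q against untreated old bladders, 0% of the 17037 genes tested passed with edgeR (2200 had an unadjusted p under 0.05), and DESeq2 called 180. The median log2 fold change was 0.0582 over the members and 0.002 over all genes, and 4 of 9 members had an unadjusted p under 0.05. Cldn4 came closest to the threshold: the untreated old bladders spanned 166.5 to 189.1 CPM (median 172.4) and the D + Q bladders 187.2 to 232.3 CPM (median 211.1). All but the lowest D + Q bladder lay above every untreated one, and the log2 value was 0.27 (95% interval 0.152 to 0.391, unadjusted p = 0.000273, adjusted p = 0.233). With DESeq2 the value was also 0.27, and it was the only member called (adjusted p = 0.00374).

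Cldn7, Cldn5 and Ocln had log2 values above 0 as well. Cldn7 stood at 36.3 to 50.8 CPM (median 44.2) after D + Q, with a value of 0.25 (95% interval 0.0762 to 0.419, adjusted p = 0.294), and Ocln at 18.1 to 21.1 CPM (median 19.9), with 0.13 (0.01 to 0.251, adjusted p = 0.363). Cldn5 was split among the D + Q bladders, with replicates 3 and 6 at 27.1 and 27.6 CPM and the other 4 at 16.7 to 19.0 CPM, within the untreated range. Its log2 value was 0.27 (95% interval 0.000545 to 0.549, adjusted p = 0.386). Tjp3 (0.06) and Tjp1 (-0.08) differed less, and Cldn1, Cldn3 and Cldn8 lay between -0.04 and 0.01.

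The water and vehicle bladders were set against the same untreated old bladders, so these 3 comparisons share their controls and their values are given side by side. Cldn4 stood at 207.9, 177.2, 191.4, 183.8 and 205.0 CPM after water and at 210.1, 171.6, 180.1 and 214.6 CPM after vehicle, with log2 values of 0.14 (adjusted p = 0.155) and 0.15 (0.571), beside 0.27 after D + Q. Cldn7 had 0.17 (adjusted p = 0.194) after water and 0.18 (0.511) after vehicle, beside 0.25. Cldn5 had 0.28 (adjusted p = 0.196) and 0.19 (0.563), beside 0.27. Cldn8 had -0.17 (adjusted p = 0.346) after water and -0.19 (0.567) after vehicle. With water 1.0% of the 17250 genes tested passed, or 173 genes of which 84 were higher, and after GC correction 41 passed, of which 38 were higher. With vehicle 0% of the 17440 genes tested passed (1464 had an unadjusted p under 0.05, and DESeq2 called 132). Of the members, 3 had an unadjusted p under 0.05 after water and 4 after vehicle, and DESeq2 called 0 in either. Of all genes tested, 2760 (16%) had an unadjusted p under 0.05 after water and 8.39% after vehicle.

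The slope of log2 level on GC content for each 10 percentage points was -0.073 to -0.011 in the untreated old bladders, -0.054 to 0.054 after D + Q, 0.0064 to 0.097 after water and -0.044 to 0.13 after vehicle. Accordingly, the log2 fold change against them rose by 0.043 for each 10 percentage points of GC content after D + Q, by 0.09 after water and by 0.084 after vehicle. With the GC correction, the D + Q values were 0.24 for Cldn4, 0.22 for Cldn5 and 0.21 for Cldn7. With the urothelial markers other than Krt14 as a covariate, they were 0.22, 0.09 and 0.15.

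The comparison that isolates the drugs is D + Q against vehicle. Here 0% of the 17267 genes tested passed (722 had an unadjusted p under 0.05, and DESeq2 called 10), and the median log2 value of the members was 0.0846, with that of all genes at -0.0027. The value for Cldn4 was 0.12, and its 95% interval of -0.0632 to 0.297 holds 0. Tjp3 stood at 77.8, 81.1, 82.4 and 79.7 CPM after vehicle and at 83.5 to 86.8 CPM (median 85.5) after D + Q, without overlap, and had a log2 value of 0.08 (unadjusted p = 0.0371, adjusted p = 0.994). It was the only member with an unadjusted p under 0.05, and DESeq2 called 0 members here.

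**Figure D4:**
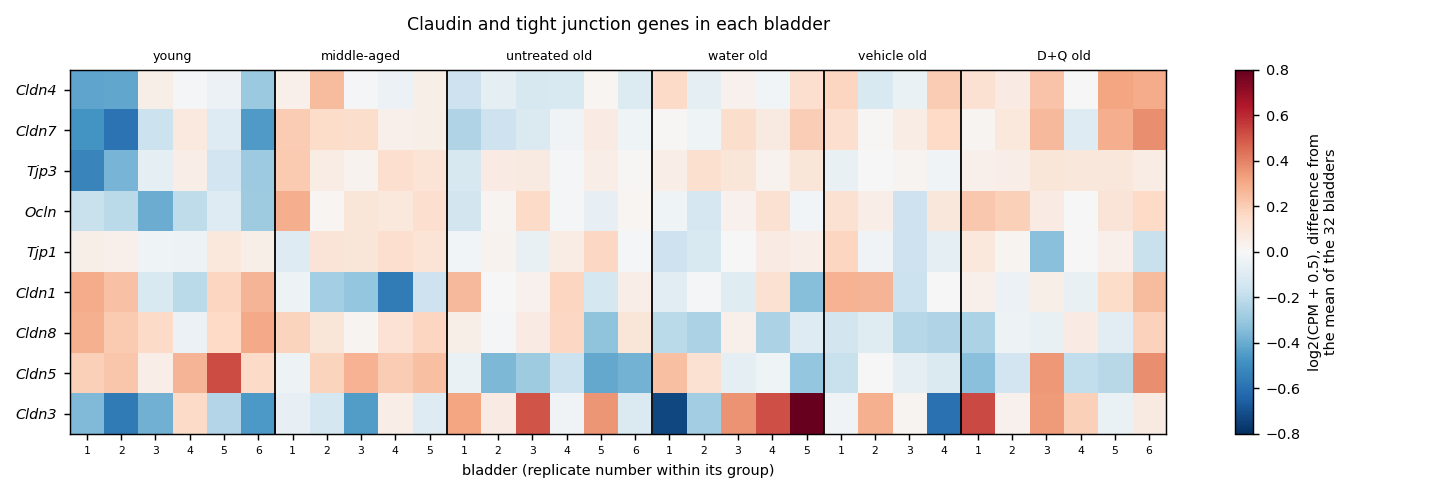
Difference of each gene's log2(CPM + 0.5) from its own mean over the 32 bladders, with a column for each bladder sorted by group and a row for each gene. Cldn4, Cldn7 and Tjp3 share their low columns in young replicates 1, 2 and 6, and Cldn5 is low across the untreated old columns.

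From bladder to bladder within groups, some members varied in step. Deviations of log2(CPM + 0.5) from the group means gave a correlation over the 32 bladders of 0.797 between Cldn4 and Cldn7, 0.63 between Cldn7 and Tjp3 and 0.527 between Cldn4 and Tjp3. Cldn1 ran against Tjp3 (-0.541) and with Cldn8 (0.45), and Cldn5 against Tjp1 (-0.518), and the correlation of Ocln with Cldn4 was -0.000788. The points share libraries and depth, and the first 3 genes are all rich in GC while Cldn1 and Cldn8 are poor in it. The same deviations correlated with the fibroblast score at -0.672 for Cldn4, -0.668 for Tjp3 and -0.589 for Cldn7, and with the urothelial score at 0.248, 0.0243 and 0.338.

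Among 15054 genes with a mean of at least 1 CPM, the gene closest to both Cldn4 (correlation 0.851) and Cldn7 (0.901) was Spint2, a membrane-bound inhibitor of serine proteases in epithelia. Llgl2 (0.807), a polarity protein, and Ubqln2 (0.805) followed for Cldn4, and Prdx6 (0.859) and Shh (0.854), a signal made by the urothelium, for Cldn7. Tjp3 was closest to Coq9 (0.837), Macrod1 (0.833) and Chchd10 (0.813), genes of mitochondrial proteins. Tjp1 was closest to Pard3b (0.868), a polarity gene of cell junctions, then to Plxna1 (0.846) and Sbf2 (0.835). The correlations of the remaining members with their closest genes were lower, at 0.777 for Cldn1 with Mospd1, 0.783 for Cldn5 with Pck2, 0.777 for Cldn8 with Rgs5, 0.725 for Ocln with AW046200 and 0.722 for Cldn3 with 1810024B03Rik.

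The other claudins were few in this tissue. Of 18 further claudin genes matched, 6 had enough counts in the comparisons of ages. Cldn23 followed the pattern of Cldn7, with log2 fold changes of 0.32 (adjusted p = 0.0129) from 2 to 10 months and -0.32 (0.00969) from 10 to 26 months. Its groups did not overlap in the first step, and in the second the highest old bladder (18.71 CPM) just passed the lowest middle-aged one (18.69 CPM). Cldn15, a cation channel claudin of the gut, was lower at 10 than at 2 months (-0.65, adjusted p = 0.0118), and Cldn10, another channel-forming claudin, was lower at 26 than at 10 months (-0.33) and at 2 months (-0.31). Cldn11, a claudin of myelin, was lower at 26 than at 2 months (-0.70), as was Cldn34c1 (-0.57), which has near copies in the genome, and Cldn12 was higher (0.19). The list thus had 1 higher and 1 lower from 2 to 10 months, 0 and 2 from 10 to 26 months, and 1 and 3 over the whole span, with median log2 values of -0.0674, -0.317 and -0.321. Of all genes tested, 4.96% were higher and 5.85% lower in the first of these comparisons, 13.0% and 11% in the second and 12.6% and 12.4% in the third, and counts among 6 genes are too few to be set apart from these shares.

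Of 34 partners of the claudins, 3 were higher and 1 lower from 2 to 10 months, with a median log2 value of 0.075. Marveld2, the tricellulin of junctions where 3 cells meet, had 0.28, and Ildr1, an angulin that recruits it, had 0.21. The polarity gene Pard3 had 0.22 and the ZO-1 partner Ybx3 had -0.19. From 10 to 26 months 2 were higher, Amotl2 (0.76) and Ildr2 (0.55), and 4 lower, Jam3 (-0.30), Amot (-0.27), Magi1 (-0.16) and Jam2 (-0.16), with a median of -0.0128. Jam2 and Jam3, adhesion molecules, are found in endothelium too. Over the whole span 3 were higher and 5 lower (median 0.0632), with Ildr2 (0.43), Crb3 (0.25) and Ildr1 (0.20) on top and Amot (-0.50), Bves (-0.32), Magi1 (-0.22) and Ybx3 (-0.19) at the bottom. Against the shares of all genes, namely 4.96% higher and 5.85% lower, then 13.0% and 11%, then 12.6% and 12.4%, the partners' counts were near or below the background in the comparisons with old bladders.

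Of the adherens junction and desmosome genes of epithelia, 17 were tested. From 2 to 10 months 4 were higher and none lower (median 0.11): Nectin4 (0.34), Epcam (0.33), which binds Cldn7, the desmocollin Dsc2 (0.24) and the plakophilin Pkp3 (0.20). From 10 to 26 months none was higher and 3 were lower (median -0.0761), namely Epcam (-0.29, adjusted p = 0.000816), Nectin4 (-0.18) and E-cadherin (Cdh1, -0.12). Over the whole span Pkp3 (0.26) and Dsg2 (0.13) were higher and Pkp1 (-0.55) and Ctnna1 (-0.16) lower, with a median of 0.0159. Of all genes, 4.96% were higher and 5.85% lower from 2 to 10 months, 13.0% and 11% from 10 to 26 months and 12.6% and 12.4% over the whole span, and the counts over that span were near these shares. Epcam was the only gene of these 4 lists called after water gavage (0.27, adjusted p = 0.028).

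All 19 regulators of epithelial junction genes were tested. From 2 to 10 months 5 were higher and none lower (median 0.189), among them Klf5 (0.42, adjusted p = 0.00582), Grhl2 (0.31, adjusted p = 0.0208, no overlap), Ehf (0.30) and Foxa1 (0.23), transcription factors of epithelia. From 10 to 26 months only Gata3, a factor of urothelial identity, passed (-0.14), with a list median of -0.0821. Over the whole span Klf5 (0.30), Grhl2 (0.28), Ehf (0.23) and Foxa1 (0.14) were higher, and Zeb2 (-0.28) and Zeb1 (-0.18), repressors of junction genes that mesenchymal cells and leukocytes also express, were lower (median 0.0891). The shares of all genes were 4.96% higher and 5.85% lower in the first comparison, 13.0% and 11% in the second and 12.6% and 12.4% in the third, so the single call from 10 to 26 months was below the background. The fibroblast markers moved in the same comparisons, with 6 of 8 lower from 2 to 10 months (median -0.547) and 7 of 8 lower over the whole span (median -0.855).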

How the data were processed

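Bulk RNA of 32 whole mouse bladders was sequenced from total RNA libraries with a stranded kit. Per the labels and the study's methods, reads went through STAR (2.7.3) against mm10 and then through featureCounts of Subread, which the authors ran per gene. The authors deposited the raw counts of 32285 genes, of which 32158 had a symbol in the annotation used here. The table the authors deposited as log2 values of length-scaled counts was not used. Summed counts were 15088372 to 52650259 per bladder, and no molecular identifiers are named, so counting error alone is covered by any floor. No sequencing batch is given in the sources used here.

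CPM used TMM factors over all 6 groups, and TPM used the summed exon length that the authors deposited beside the counts. Groups were compared by the quasi-likelihood test of edgeR 4.0.16 (R 4.3.3) after filterByExpr and TMM, and each fit held only its 2 groups (3 ages for the difference of the age steps). P-values were adjusted over all genes tested by Benjamini-Hochberg and called under 0.05. They measure the spread between bladders, each the sole library of its mouse. GC content was that of the longest GENCODE transcript of each gene, and RefSeq promoters were searched for 4 motifs. Python 3.11.15 and matplotlib 3.10.9 drew the plots. Simulated data with known changes were used to test the fits.

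Named genes are the 9 members. Of each list they are also up to 4 with the largest rise and up to 4 with the largest fall among those called, or, where none passed, up to 2 with the smallest unadjusted p. For each member the 3 genes of highest within-group correlation were found, and all 3 or the first are given. A gene that the rule names among the regulators is not reported here. The members and lists were chosen with earlier results of these data known. Marker scores are means of log2(CPM + 0.5).

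Alternatives were DESeq2 1.42.0, no filter on low counts, a shared fit of all 6 groups, a minimum of 10 counts per bladder, the replicate number as a block, urothelial markers as a covariate, levels as TPM, and each bladder left out in turn. After seeing the data, a GC correction, the bladders under 25000000 counts left out, endothelial markers and urothelial markers except Krt14 as covariates, and all alternatives for the difference of the age steps were added.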

Additional observations from a re-analysis of the deposited data

Results flagged for a closer look

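Cldn4 in middle-aged replicate 2, at 222.4 CPM, stood far above the other 4 middle-aged bladders, which lay between 181.1 and 192.7 CPM. Tjp1 in middle-aged replicate 1, at 254.5 CPM, stood far below the others, at 291.9 to 299.7 CPM. Of the 54 gene and group combinations, these 2 had a value whose gap to its neighbour took a larger share of the range than Dixon's critical value, and chance alone flags about 1 in 20.

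For 3 genes the change from 10 to 26 months differed from that from 2 to 10 months by the direct test on the 3 ages. The difference was 0.75 on the log2 scale for Cldn1, -0.59 for Cldn7 and -0.49 for Ocln. The middle-aged bladders enter both steps.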

How the results depend on the processing

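The 46 log2 values stated one by one for the 9 genes were recomputed 985 times in all, and 981 kept their direction. Those reversed were the untreated old versus young values of Cldn1 (0.175), Cldn4 (-0.147) and Cldn7 (-0.149) with the endothelial covariate, and Cldn5 in middle-aged versus young bladders without young replicate 5 (0.00737, range over omissions -0.0949 to 0.00737). The causes were not tested. Values near 0 that are given only as a range, those of Cldn1, Cldn3 and Cldn8 after D + Q, were not among the 46.

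From 2 to 10 months, the 1811 genes called became 2858 with all 6 groups in a single fit, 716 with the replicate block, 212 with the endothelial covariate, 3717 without the shallow bladders and 728 to 2794 with 1 bladder left out. The 4 members called became 2 with the block (Cldn1 and Ocln), 0 with the endothelial covariate and 1 to 4 with 1 left out. From 10 to 26 months, the 4110 genes became 2519 with all 6 groups together. The 4 members became 2 there, 2 with the block (Cldn1 and Cldn5, with Cldn7 at -0.21, adjusted p = 0.0618) and 2 with the urothelial markers except Krt14. From 2 to 26 months, the 4229 genes became 1909 with the endothelial covariate, of which 1248 were higher. The 3 members became 5 with the GC correction, 1 with the endothelial covariate, 6 without the shallow bladders and 2 to 5 with 1 left out. With the block they were again 3, with Tjp3 gained and Ocln lost (0.23, adjusted p = 0.0594). For the difference of the age steps, the 1884 genes became 3886 without the shallow bladders and 683 to 2907 with 1 left out. The 3 members became 5 with the endothelial covariate, 1 with the urothelial markers except Krt14, 5 without the shallow bladders and 1 to 5 with 1 left out.

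With DESeq2, 180 genes and 1 member (Cldn4) were called after D + Q, 132 genes after vehicle and 10 for D + Q against vehicle, all 0 with edgeR. After water the 173 genes became 703 with DESeq2, 99 with no filter, 0 with all 6 groups, 0 with the block, 4 with the urothelial covariate, 0 without Krt14 in it, 41 with the GC correction, 37 without the shallow bladders and 37 to 199 with 1 left out.

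Same-numbered bladders of 2 groups, by the numbers of the sample titles, correlated at -0.339 to 0.248 over 35 pairs. These title numbers also formed the block. For some middle-aged, water and vehicle bladders the sample descriptions carry other numbers than the titles. Pairing by the numbers of the descriptions was not checked, so the check cannot decide whether bladders were paired. All 27 ratios of group means moved by less than the spread when TPM replaced CPM. Depth limits Cldn3, which had 0 to 34 counts per bladder.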

Other observations

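After gavage, no gene of the further claudin, partner, adherens or regulator lists passed with D + Q or vehicle against untreated old bladders. With D + Q the smallest unadjusted p among the claudins was that of Cldn23, with a log2 value of 0.29 (unadjusted p = 0.00299, adjusted p = 0.269). Among the adherens genes it was that of Epcam, with 0.24 (unadjusted p = 0.00288, adjusted p = 0.269). Both stood below their middle-aged level in the untreated old bladders. The medians of the 4 lists after D + Q were 0.0937 for the claudins, 0.00698 for the partners, 0.0308 for the adherens genes and 0.073 for the regulators.

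After D + Q none of the 12 endothelial, 8 fibroblast, 9 smooth muscle, 5 mesothelial or 5 Schwann cell markers passed. Leukocyte markers had a median log2 value of -0.592 after D + Q (0 of 11 passed, 7 with an unadjusted p under 0.05), -0.208 after water and -0.0349 after vehicle. Within groups the leukocyte score correlated with Cldn7 at -0.535 and with Cldn4 at -0.488 over the 32 bladders.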
